A study of Oryza sativa with 6 samples.

Results

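Probe sets whose signal was at least halved in *crl1* were followed here across genotypes, replicates and chromosomes. The members were selected on the measured signals: a probe set was kept when its geometric mean signal over the 6 arrays reached 20 and its ratio of *crl1* to WT was under 0.5 in each of the 3 pairs of same-numbered arrays. The rule found 44 probe sets, which is 0.176% of the 25045 that reached the minimum and a small part of the 57258 probe sets other than controls. RNA came from stem bases of 7-day-old rice seedlings of cultivar Taichung 65, either *crl1* (*crown rootless1*) or WT, grown on sterile agar medium under 12 h of light and 12 h of dark with no other treatment, and was hybridised to 3 GeneChip Rice Genome Arrays per genotype. Each array stands for a separate pool of stem bases, so that differences between single plants were averaged within it. The *crl1* group is a single mutant in a single cultivar. In such bulk tissue, fewer cells of a type and less RNA per cell cannot be told apart.

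Rice forms crown roots at the nodes of its stem base throughout early growth, and they anchor and feed the plant once the seminal root is outgrown. *CRL1* encodes an auxin-induced transcription factor of the AS2/LOB-domain family that is needed to initiate crown root primordia in rice, and *crl1* plants form no crown roots. A stem base of WT therefore holds crown root primordia beside stem, leaf sheath and meristem tissue, whereas these primordia are missing in *crl1*. No probe set could be matched to *CRL1* by name here, so that the signal of the mutated gene itself was not analysed.

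Of the 44 members, 29 were paired with a single gene each and these gave 28 genes. The other 15, paired with no gene or with several, are termed unpaired and called by their probe set. Most of the genes carry a locus number and no name. The exceptions were *GER3*, a germin-like protein, *Cht11*, a chitinase, *HOX12*, a homeobox transcription factor, and *BURP16*, a BURP-domain protein, and the other 24 genes cannot be given a role. A locus number is written LOC followed by the gene identifier of the reference annotation.

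The signal is the MAS5 summary of a probe set on a linear scale, after each array was scaled to a target of 100. Mean signals of the members ran between 11.5 and 126 in *crl1*, with a median of 29.5, and between 39.4 and 1165 in WT, with a median of 94.9. The median over all tested probe sets was 130.9 in both genotypes, so that the typical member was below the typical tested probe set even in WT. In *crl1*, 15 members had a mean signal under 20 and 5 were under 20 on all 3 arrays, whereas no member was under 20 on any WT array. The rule itself favours this contrast, since a member that is dim in *crl1* reaches the minimum only through its WT signal. For these counts no share of all tested probe sets was computed. The signals of all members summed to 1552, 1735 and 1666 on *crl1* arrays 1 to 3, against 6939, 7230 and 6422 on WT arrays 1 to 3. The 3 brightest members made up between 11.4 and 15.5% of that sum in *crl1* and between 32.3 and 33.4% in WT.

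The size of the difference varied more than the rule required. The geometric mean of the 3 ratios stood for a signal between 2.12-fold and 24.6-fold lower in *crl1*, with a median of 3.21-fold. There were 8 members over 5-fold, 19 between 3 and 5-fold and 17 between 2 and 3-fold. The 3 *crl1* arrays lay below the 3 WT arrays in 37 of the 44 members and overlapped with them in 7. Among all tested probe sets, 3.64% had *crl1* arrays that all lay below the WT arrays. A limma fit on log2 signal, blocked by replicate number, called 39 of the members lower at an adjusted p under 0.05, against 0.447% of all tested probe sets. Both counts follow from the same contrast that selected the members and carry no further weight. Fold differences of dim members depend on how low signals are treated: with 16 added to every signal, 19 of the 44 still had all 3 ratios under 0.5.

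**Figure D1:**
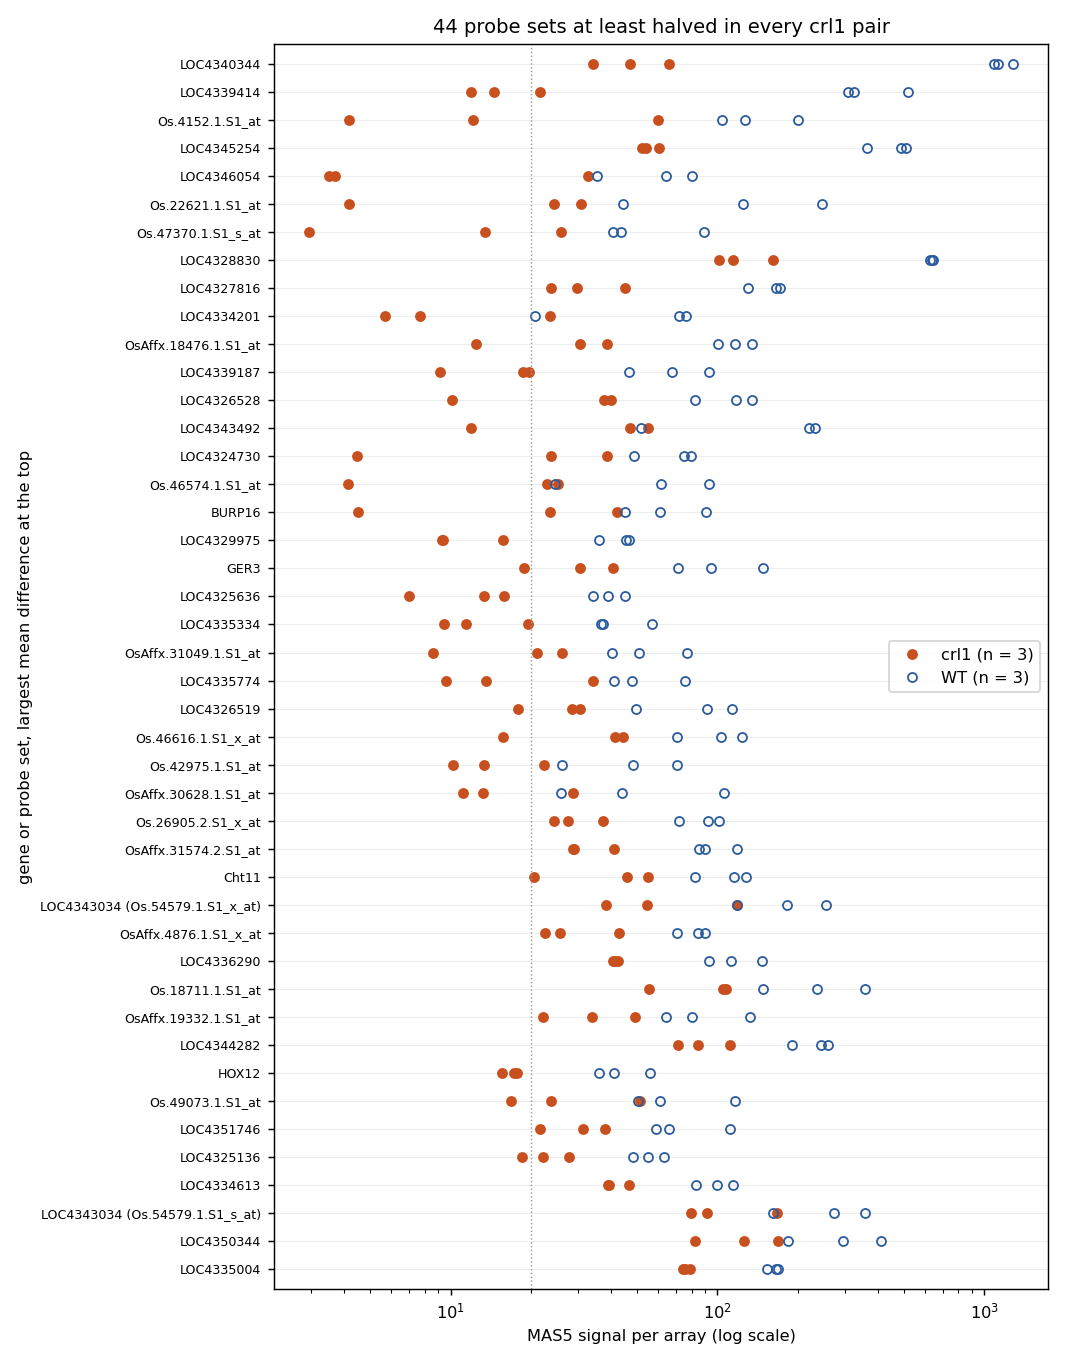
Signal of each of the 44 members on each array, on a log axis, with filled points for *crl1* and open points for WT (3 arrays each) and a dotted line at the signal minimum of 20. Members are ordered by their mean log2 ratio, with LOC4340344 (-4.62) at the top and LOC4335004 (-1.09) at the bottom, and 7 of them have overlapping genotypes.

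The largest differences belonged to LOC4340344 on chromosome 6 and LOC4339414 on chromosome 5. LOC4340344 had signals of 65.8, 46.9 and 34.0 on *crl1* arrays 1 to 3, against 1123, 1284 and 1088 on WT arrays 1 to 3. It was the brightest member in WT and its lowest WT array was 16.5 times its highest *crl1* array, with a mean log2 ratio of -4.62 ± 0.47 (SD over the 3 pairs, as in the values that follow). LOC4339414 had signals of 11.9, 21.7 and 14.5 in *crl1*, against 516, 325 and 309 in WT, a mean log2 ratio of -4.59 ± 0.78. Its mean log2 ratio was -3.62 with 16 added to every signal. Both genes were thus among the brighter members in WT, and in the mutant LOC4339414 was under 20 on arrays 1 and 3 while LOC4340344 stayed above 20 on every array.

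LOC4345254 on chromosome 8 followed among the bright members. It had 52.3, 60.6 and 54.1 in *crl1*, against 507, 489 and 363 in WT, a mean log2 ratio of -3.01 ± 0.27, and the *crl1* arrays were nearly equal. LOC4328830 on chromosome 2 had 114, 161 and 102 in *crl1*, against 640, 639 and 625 in WT, a mean log2 ratio of -2.36 ± 0.33, and was the member with the highest mean signal in *crl1*. LOC4327816 on chromosome 1 had 45.2, 29.8 and 23.8 in *crl1*, against 171, 166 and 130 in WT, a mean log2 ratio of -2.28 ± 0.31. In these 5 genes every *crl1* array lay at less than a ratio of 0.5 to every WT array, whatever the pairing. The same held for 13 members in all, among them *HOX12*.

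Large mean differences elsewhere rested on signals that scattered. Os.4152.1.S1_at had 60.1, 12.1 and 4.16 in *crl1*, against 200, 127 and 104 in WT, so that its ratio differed widely between pairs and its mean log2 ratio of -3.26 had an SD of 1.46. LOC4346054 on chromosome 8 had 3.69, 32.8 and 3.49 in *crl1*, against 35.4, 80.5 and 64.2 in WT, with a mean log2 ratio of -2.92 ± 1.48, the widest spread of any member. Os.22621.1.S1_at had 30.8, 24.3 and 4.16 in *crl1*, against 124, 246 and 44.2 in WT, a mean log2 ratio of -2.92 ± 0.79. In these 3 probe sets the lowest *crl1* arrays were far below the minimum. An SD over 1 was found for 6 members, namely Os.4152.1.S1_at, LOC4346054, Os.47370.1.S1_s_at, LOC4334201, LOC4324730 and *BURP16*, and the lowest *crl1* array of each lay between 2.95 and 5.67. Of the other members among the 12 with the lowest ratios, OsAffx.18476.1.S1_at had 12.5, 38.6 and 30.5 in *crl1*, against 100.2, 134 and 116 in WT, and a mean log2 ratio of -2.24 ± 0.66. LOC4339187 on chromosome 5 had 18.6, 9.16 and 19.6 in *crl1*, against 92.7, 46.7 and 67.7 in WT, a mean log2 ratio of -2.15 ± 0.32.

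The SD over the pairs was under 0.2 for 7 members, whose mean log2 ratios ran between -2.13 and -1.09. By its construction the rule favours such steady ratios. LOC4350344, the single member gene on chromosome 11, had 126, 82.5 and 169 in *crl1*, against 295, 184 and 409 in WT, a mean log2 ratio of -1.22 ± 0.06. Its level differed about as much between replicates as between genotypes, and its ratio under 0.5 in every pair is what the rule required. LOC4335004 on chromosome 4 was steady in both respects, with 74.4, 78.9 and 75.7 in *crl1*, against 165, 168 and 153 in WT, a mean log2 ratio of -1.09 ± 0.07. Other bright members were LOC4344282 on chromosome 7, with 84.8, 71.0 and 112 in *crl1*, against 260, 190 and 245 in WT, and the unpaired Os.18711.1.S1_at, with 55.5, 105 and 108 in *crl1*, against 148, 357 and 237 in WT. Neither of these overlapped between genotypes.

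The 29 paired members were between 2.12-fold and 24.6-fold lower in *crl1*, with a median of 3.43-fold, and the 15 unpaired ones between 2.58-fold and 9.55-fold, with a median of 3.09-fold. Among the unpaired ones, the 6 whose names start with OsAffx were dim in both genotypes, with mean signals between 17.7 and 35.1 in *crl1* and between 56.0 and 117 in WT. The genes that follow were named for a feature of their arrays after their values were seen. LOC4336290 on chromosome 4 had the most even *crl1* arrays, with 42.4, 40.5 and 41.4 in *crl1*, against 113, 147 and 92.7 in WT. LOC4326528 on chromosome 1 had 10.1, 37.5 and 39.8 in *crl1*, against 82.3, 117 and 135 in WT, and thus a *crl1* array 1 that stood apart from the other *crl1* arrays. The 5 genes under 20 on all *crl1* arrays were LOC4329975, LOC4335334, LOC4325636, LOC4339187 and *HOX12*. LOC4329975 on chromosome 2 had 9.39, 15.8 and 9.25 in *crl1*, against 46.5, 36.0 and 45.6 in WT. LOC4335334 on chromosome 4 had 19.4, 11.4 and 9.45 in *crl1*, against 56.9, 36.5 and 37.2 in WT. The 44 members carry 41 cluster numbers in their names, since 3 numbers occur in a pair of members, and such pairs may share target sequence and are not independent readings. In one such pair LOC4334613 on chromosome 3 had 38.9, 39.4 and 46.7 in *crl1*, against 115, 82.9 and 99.9 in WT, while its partner Os.26905.2.S1_x_at had 37.4, 27.6 and 24.3 in *crl1*, against 92.5, 101.04 and 72.0 in WT.

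**Figure D2:**
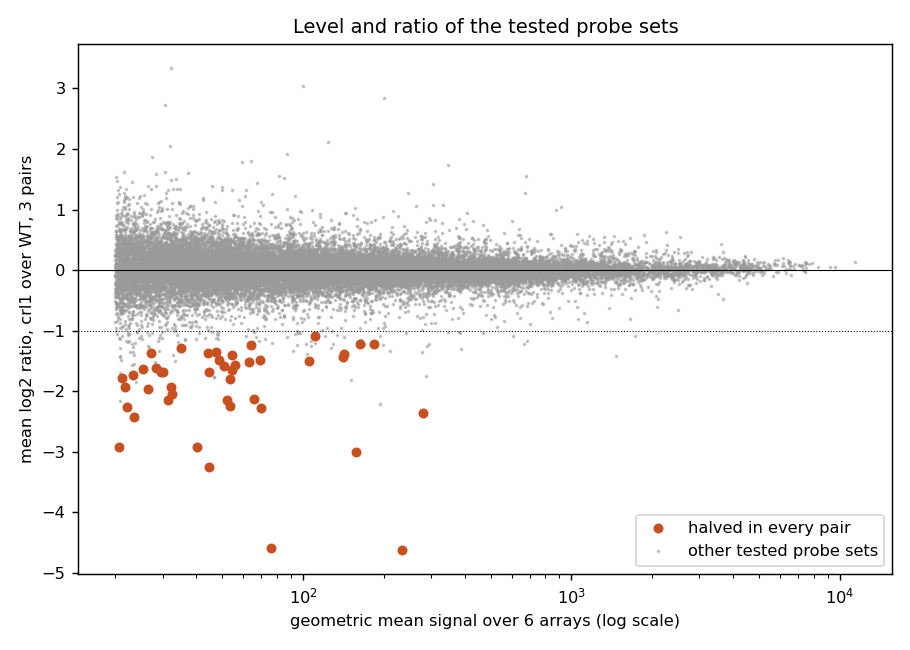
Mean log2 ratio of *crl1* over WT (3 pairs) against geometric mean signal over the 6 arrays (log axis), for the 44 members (filled, orange) and the other tested probe sets (grey), with lines at 0 and -1. The members lie in the lower and middle part of the signal range, and the spread of all probe sets is widest at low signal.

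*GER3* belongs to the germin-like proteins, secreted proteins of the cell wall space that bind manganese and of which some produce hydrogen peroxide. It lies on chromosome 8 and had signals of 30.6, 18.9 and 40.8 in *crl1*, against 94.8, 70.9 and 149 in WT. The genotypes did not overlap and the mean log2 ratio was -1.80 ± 0.15. In both genotypes replicate 3 was the highest and replicate 2 the lowest, and the ratio stayed between 0.267 and 0.323. Of 9 germin-like genes tested, *GER3*, which the rule had selected, was the single one called lower by limma and none was higher, and 4 had an unadjusted p under 0.05, a threshold that 9.55% of all tested genes met in either direction. The median log2 fold change of the list was -0.17, beside -0.01 over all 15040 tested genes, of which 0.472% were called lower and 0.186% higher. *GER2*, the nearest tested gene on one side of *GER3*, had 1773, 5451 and 2962 in *crl1*, against 4408, 5751 and 2567 in WT, with overlapping genotypes (log2 fold change -0.40, limma adjusted p = 0.646). *GER1*, also on chromosome 8, stood at 0.02 (limma adjusted p = 0.983) and *GER6* at 0.93 (limma adjusted p = 0.470). *GER4* was at -0.39 (limma adjusted p = 0.322) and *GER7* at -0.37 (limma adjusted p = 0.424). A negative log2 fold change was found for 6 of the 9 genes, beside 52.1% of all tested genes.

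*Cht11* encodes a chitinase, an enzyme that cuts chitin, the polymer of fungal cell walls, and it lies on chromosome 3. Its signals were 55.0, 45.8 and 20.6 in *crl1*, against 128, 116 and 82.3 in WT, with no overlap and a mean log2 ratio of -1.52 ± 0.42. Of 7 chitinase genes tested, 2 were called lower by limma, *Cht11* itself and the *Cht1* gene LOC4338719, none was higher and 6 had an unadjusted p under 0.05, against 9.55% of all tested genes. The *Cht1* gene LOC4338719 had 231, 226 and 127 in *crl1*, against 399, 513 and 433 in WT (log2 fold change -1.25, SE 0.17, limma adjusted p = 0.0148). It is no member because its ratio in pair 1 was 0.578, while its other ratios were 0.440 and 0.293. The call was lost in the limma fit without the replicate block (adjusted p = 0.598) and in the limma fit without the mean-variance trend (0.290). *Cht2* had 71.3, 105 and 67.9 in *crl1*, against 141, 197 and 92.6 in WT, with a log2 fold change of -0.78 that did not pass (limma adjusted p = 0.0753). *Cht4* was at -1.14 (limma adjusted p = 0.189) and *Cht10* at -0.41 (limma adjusted p = 0.587). The direction was not shared by the whole list. *Cht3* had a log2 fold change of 0.82 (limma adjusted p = 0.175) and a second *Cht1* gene, LOC4342115, one of 0.55 (limma adjusted p = 0.324). A negative log2 fold change was found for 5 of the 7 genes, beside 52.1% of all tested genes, and their median was -0.78.

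*HOX12* encodes a transcription factor of the HD-Zip class, in which a homeodomain is joined to a leucine zipper, and in rice it is known to act on panicle exsertion through a gene of gibberellin breakdown. It lies on chromosome 3 and had 15.6, 17.3 and 17.7 in *crl1*, against 56.0, 36.0 and 41.0 in WT. All *crl1* arrays were below the minimum of 20 and nearly equal, and all WT arrays were above it. A member so dim in *crl1* passes the minimum only through its WT signal. The mean log2 ratio was -1.37 ± 0.42. With 16 added to every signal the mean log2 ratio was -0.86. The list of HD-Zip genes was taken by name alone, HOX followed by a number, and may hold homeobox genes of other classes. Of its 22 genes tested, *HOX12* included, 0 were called lower and 0 higher by limma, beside 0.472% and 0.186% of all tested genes. The median log2 fold change was 0.01. An unadjusted p under 0.05 was found for 2 genes (beside 9.55% of all tested genes), *HOX4* and *HOX12*, the latter selected by the rule. *HOX4* was the brighter of these 2, with 493, 388 and 536 in *crl1*, against 364, 361 and 362 in WT (log2 fold change 0.37, limma adjusted p = 0.285).

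*BURP16* on chromosome 10 encodes a protein with a BURP domain, a plant-specific domain found in secreted proteins of the cell wall. It had 4.48, 42.0 and 23.5 in *crl1*, against 45.2, 90.3 and 60.9 in WT, with a mean log2 ratio of -1.94 ± 1.22. The genotypes did not overlap, but *crl1* array 2 came close to WT array 1, and the ratios of 0.0991, 0.466 and 0.386 were uneven. Of 5 BURP genes tested, *BURP16* included, 0 were called lower and 0 higher by limma, beside 0.472% and 0.186% of all tested genes. The 1 gene with an unadjusted p under 0.05 (beside 9.55% of all tested genes) was *BURP16* itself, which the rule had selected. The median log2 fold change of the list was 0.08. *BURP02* and *BURP17*, the brightest of the list, stood at log2 fold changes of 0.08 (limma adjusted p = 0.934) and 0.03 (limma adjusted p = 0.962). The lists of BURP and HD-Zip genes were added after the names of the members were seen.

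The 7 members with overlapping genotypes were LOC4334201, LOC4343492, Os.46574.1.S1_at, OsAffx.30628.1.S1_at, both members of LOC4343034, and Os.49073.1.S1_at. In each, replicates of a genotype differed so much that at least 1 *crl1* array exceeded a WT array of another number. LOC4343492 on chromosome 7 had 47.2, 55.1 and 12.0 in *crl1*, against 220, 231 and 51.6 in WT. Its replicate 3 was low in both genotypes, at 0.234 of the geometric mean of replicates 1 and 2 in *crl1* and 0.228 in WT, and its mean log2 ratio was -2.13 ± 0.08. Os.22621.1.S1_at and Os.46574.1.S1_at were likewise at under 0.5 of replicates 1 and 2 in replicate 3 of both genotypes. These 3 members are 6.82% of the 44, beside 1.35% of all tested probe sets. Os.49073.1.S1_at was the single member over 2-fold higher in replicate 3 of both genotypes, with 16.9, 23.8 and 51.3 in *crl1*, against 50.2, 61.1 and 116 in WT. Replicate 3 was below the geometric mean of replicates 1 and 2 in both genotypes in 22 members (50%, against 41.4% of all tested probe sets). It was above that mean in both genotypes in 12 members and on opposite sides in 10. For these last counts no share of all tested probe sets was computed. The median coefficient of variation of the members was 38.2% in *crl1* and 31.7% in WT. Replicate 3 of both genotypes also had the lowest median signal of all probe sets, 12.5 in *crl1* and 12.7 in WT against 15.2 to 16.6 on the other arrays, and the part of this in the members' ratios was not tested.

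At the threshold, the members just inside were a probe set of LOC4343034, LOC4335004 and LOC4324730, whose highest ratios were 0.4934, 0.4933 and 0.483. LOC4324730 on chromosome 1 had 4.45, 23.8 and 38.5 in *crl1*, against 48.5, 74.7 and 79.8 in WT. Just outside were Os.8655.1.S1_at, LOC4336228 and LOC9268308, whose highest ratios were 0.504, 0.507 and 0.514. Os.8655.1.S1_at was far brighter than any member, with 496, 1631 and 874 in *crl1*, against 1765, 4475 and 1735 in WT. LOC4336228, the next, had 37.2, 17.5 and 35.7 in *crl1*, against 73.3, 58.9 and 92.1 in WT. In all, 104 tested probe sets had only 2 of the 3 ratios under 0.5. At the signal minimum, the members just inside were LOC4346054 and LOC4325636 with geometric means of 20.6 and 21.1, and the halved probe sets just outside were those of LOC4324643 and OsAffx.6829.1.S1_at with 19.1 and 15.9. Without the minimum 570 probe sets were halved in all pairs, of which 526 lay under it.

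Because the members were selected on all 3 pairs, the ratio was also examined in a pair that the choice had not used. Probe sets were chosen on a pair of replicates alone, with the signal minimum over those arrays, and their ratio was read in the remaining pair. With pair 1 held out, 77 probe sets were chosen, 44 of them (57.1%) were under 0.5 in pair 1 and 66 were below 1, with a median ratio of 0.426, whereas 1.94% of all probe sets over the same minimum were under 0.5 there. With pair 2 held out, 39 of 58 (67.2%) were under 0.5 and 54 below 1, with a median of 0.414, against 2.25% of all. With pair 3 held out, 46 of 90 (51.1%) were under 0.5 and 84 below 1, with a median of 0.488, against 0.966% of all. Most of the chosen probe sets thus kept their direction in arrays that had no part in the choice, and between 51.1 and 67.2% of them were also under the threshold there. With pairs 1 to 3 held out, 43, 39 and 44 of the chosen probe sets were members. By the rule these are under 0.5 in every pair, so the held-out shares are no separate evidence for the members. The shares of all probe sets were not matched for signal level. The median ratio of all probe sets was 1.00, 1.01 and 0.992 in pairs 1 to 3. The ratios of the chosen probe sets reached 2.98, 2.03 and 1.22 at the high end, so that a part of them had the opposite direction in the pair held out.

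**Figure D3:**
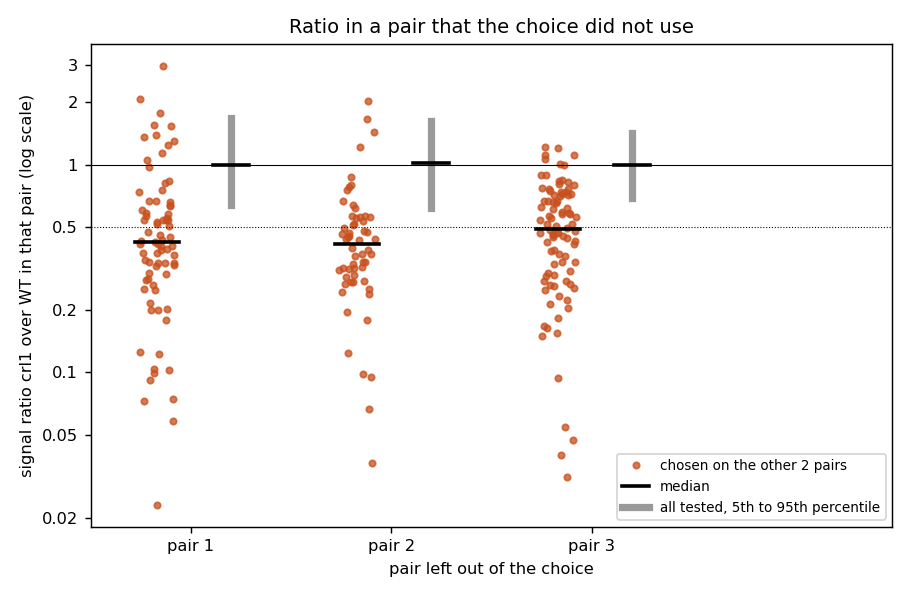
Ratio of *crl1* over WT (log axis) in the pair left out, for probe sets chosen on the other pairs (points: 77, 58 and 90) beside the 5th to 95th percentile of all probe sets over the same minimum (grey bars), with black lines at the medians. The chosen probe sets centre on 0.426, 0.414 and 0.488, and the others on 1.00, 1.01 and 0.992.

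Further probe sets of the same genes gave another reading of the same RNA. There were 7 of them for 6 member genes, 4 reached the minimum, and 1 was called lower by limma, beside 0.447% of all tested probe sets. LOC4343034 on chromosome 7 was measured by 3 probe sets. Its members Os.54579.1.S1_s_at and Os.54579.1.S1_x_at had mean log2 ratios of -1.23 ± 0.30 and -1.50 ± 0.34. The third, Os.54579.1.S1_at, had 82.4, 57.7 and 123 in *crl1*, against 155, 130 and 229 in WT, and was called lower (log2 fold change -0.99, SE 0.14, limma adjusted p = 0.0180). That call ended without replicate 3 (limma adjusted p = 0.0683), without the block (1.00) and without the trend (0.227). All 3 probe sets shared the order of the arrays, with replicate 3 highest and replicate 2 lowest in both genotypes. The suffixes _s_at and _x_at mark probe sets whose probes may bind more than one transcript, and 6 members carry one of them.

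Other genes were read unevenly by their probe sets. The member of LOC4325136 on chromosome 1, Os.35440.1.S2_a_at, had 22.3, 27.8 and 18.5 in *crl1*, against 55.0, 63.2 and 48.3 in WT, a mean log2 ratio of -1.29 ± 0.10. A brighter probe set of this gene, Os.35440.1.S1_a_at, had 118, 99.6 and 104 in *crl1*, against 98.9, 111 and 102 in WT, and stood at a log2 fold change of 0.04 by limma (adjusted p = 0.963, 95% interval between -0.29 and 0.38). The interval of the brighter probe set thus excludes a difference of the size seen in the member. LOC4334201 on chromosome 3 behaved similarly: its member Os.46616.1.S1_at had 5.67, 23.5 and 7.70 in *crl1*, against 76.4, 71.5 and 20.8 in WT. Its other probe set Os.11548.1.S1_at had 125, 149 and 197 in *crl1*, against 125, 95.04 and 184 in WT (log2 fold change 0.25 by limma, adjusted p = 0.674, 95% interval between -0.10 and 0.60). Os.46616.1.S1_x_at, an unpaired member with the same number in its name, had 41.3, 44.5 and 15.7 in *crl1*, against 123, 103 and 70.6 in WT, without overlap. For LOC4346054 the second probe set went the same way, with 15.1, 48.2 and 11.3 in *crl1*, against 24.7, 90.04 and 69.2 in WT. It did not pass (log2 fold change -1.41, limma adjusted p = 0.188, between 0.0154 without replicate 1 and 0.999978 over the alternatives). For LOC4327816 the second probe set was under the minimum and was not tested. It had 1.70, 11.3 and 1.71 in *crl1*, against 38.5, 53.4 and 36.1 in WT, and thus the same direction in each pair. Other probe sets under the minimum did not keep 1 direction over the pairs. Os.18885.1.S1_at of LOC4343492 had 1.98, 5.76 and 0.821 in *crl1*, against 12.7, 0.970 and 1.08 in WT. Os.35440.1.S2_at of LOC4325136 had 12.5, 8.18 and 1.95 in *crl1*, against 10.3, 18.1 and 7.05 in WT. The annotation that pairs these probe sets with genes may be old, and whether they read different transcripts was not tested.

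**Figure D4:**
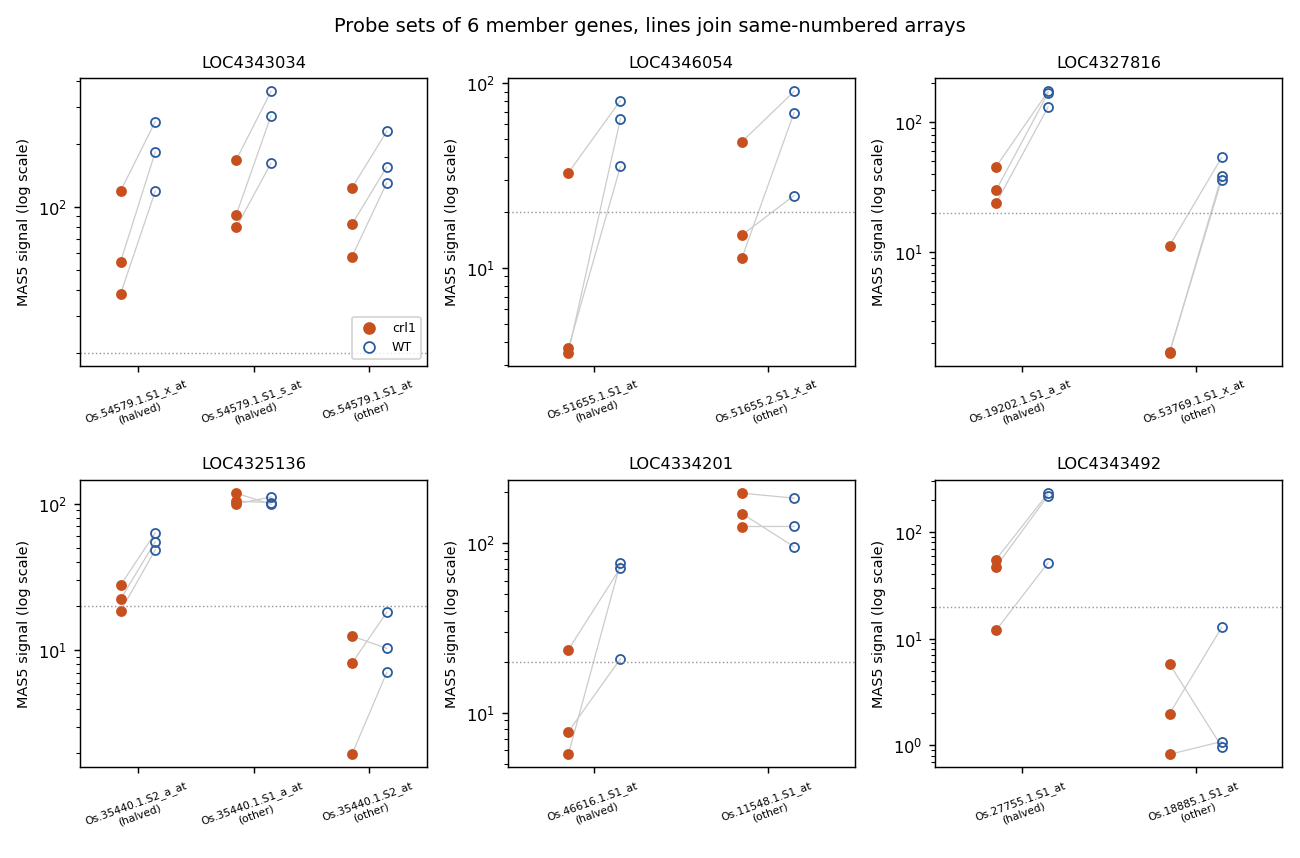
Signals (log axes) of every probe set of the 6 member genes that have more than 1, in *crl1* (filled, left) and WT (open, right), with lines joining arrays of the same number and a dotted line at 20. All 3 probe sets of LOC4343034 are lower in *crl1* in each pair. Os.35440.1.S1_a_at of LOC4325136 is near level between genotypes (log2 fold change 0.04). Os.11548.1.S1_at of LOC4334201 is at 0.25, with a 95% interval between -0.10 and 0.60.

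The member genes were scattered over the genome. They lay on 11 of the 12 chromosomes, with 6 on chromosome 1, 4 each on chromosomes 3 and 4, 3 each on chromosomes 7 and 8, and none on chromosome 9. Chromosome 1 held 21.4% of the member genes and 14.9% of all tested genes. No member gene was next to another member gene among the tested genes. So few member genes among 15040 tested genes would seldom be neighbours, so this count says little about position. The nearest tested genes on either side of the 28 member genes were 56 genes, of which 24 were the very next gene of the annotation. Their median log2 fold change was -0.02, 29 were negative and 27 positive, and 51 lay between -0.5 and 0.5. By limma 1 was called lower and 0 higher, against 0.472% and 0.186% of all tested genes, and 9 had an unadjusted p under 0.05, against 9.55% of all tested genes.

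The neighbour called lower was LOC4343033, next to LOC4343034 on chromosome 7, with 53.5, 36.5 and 134 in *crl1*, against 167, 114 and 248 in WT (log2 fold change -1.39, SE 0.18, limma adjusted p = 0.0143). LOC4343033 lost that call in the limma fits without the trend (0.237) and without the block (0.999978). Its probe set carries the suffix _s_at, and on every array its signal was between 0.915 and 1.13 times that of the member Os.54579.1.S1_x_at. Whether both read the same transcripts was not tested. LOC4326518, next to LOC4326519 on chromosome 1, had 86.7, 71.0 and 77.4 in *crl1*, against 206, 195 and 107 in WT. It missed the threshold (log2 fold change -1.06, SE 0.19, limma adjusted p = 0.0527). Over the alternatives its limma adjusted p ran between 0.00776 (without replicate 3) and 0.999978. The member LOC4326519 had 28.5, 30.4 and 18.0 in *crl1*, against 113, 91.2 and 49.6 in WT, a mean log2 ratio of -1.68 ± 0.27. In both genes WT array 3 was the lowest of the WT arrays. The neighbour with the highest value was LOC4346052, near LOC4346054, with 86.7, 46.5 and 224 in *crl1*, against 51.1, 32.9 and 34.6 in WT. Its log2 fold change was 1.32 (limma adjusted p = 0.217, between 0.0345 without replicate 1 and 0.999978 over the alternatives).

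**Figure D5:**
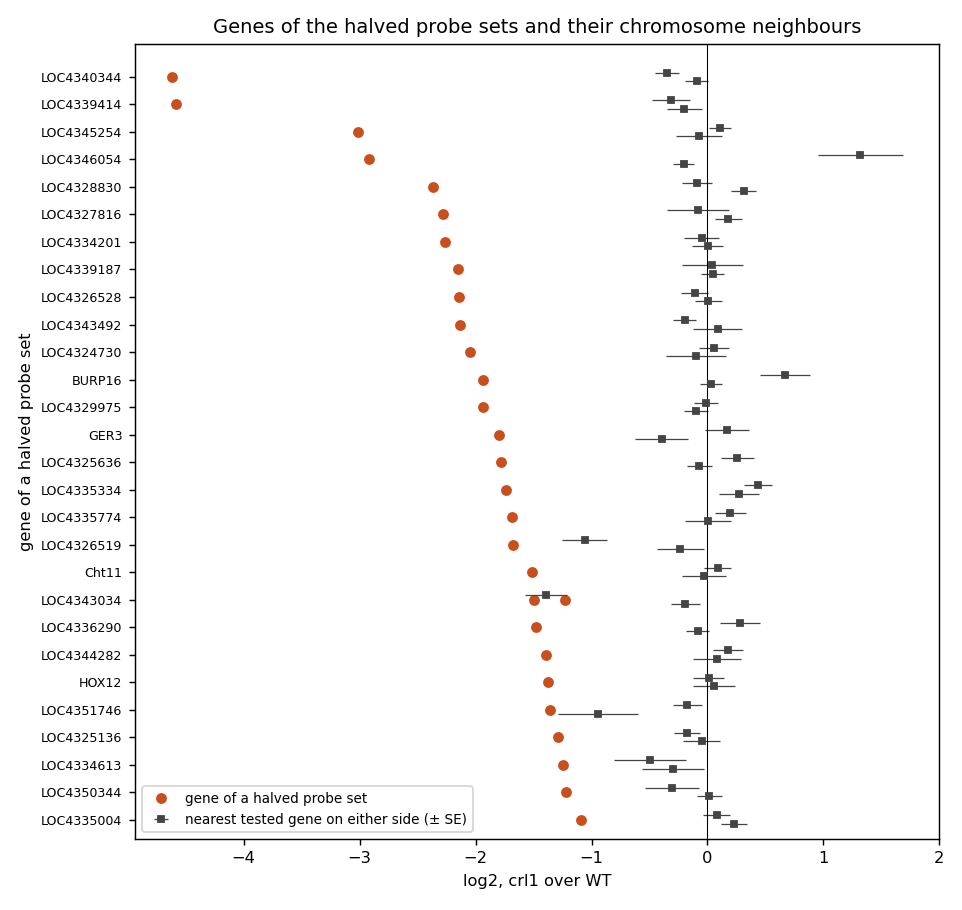
Log2 difference between *crl1* and WT for the 28 genes of the members (filled points, mean log2 ratio of the 3 pairs) and for the nearest tested gene on either side (squares, limma log2 fold change ± SE). Of the 56 neighbours 51 lie between -0.5 and 0.5, and LOC4343033 beside LOC4343034 is the one called lower.

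Beside the members, 12 lists of genes with known roles held 350 tested genes, of which 6 were called lower and 0 higher by limma, against 0.472% and 0.186% of all tested genes. Unadjusted counts in these lists stand beside 9.55% of all tested genes with an unadjusted p under 0.05. The 6 were *GER3* and *Cht11*, which the rule had selected, the *Cht1* gene above, and 3 transporters. *Nrat1*, an aluminium transporter of the plasma membrane, had 78.2, 91.5 and 55.4 in *crl1*, against 148, 287 and 113 in WT (log2 fold change -1.20, limma adjusted p = 0.0198), and a ratio of 0.529 in pair 1 kept it out of the members. *VIT1.2*, of a family of vacuolar iron transporters, had 576, 458 and 211 in *crl1*, against 1549, 666 and 382 in WT (log2 fold change -0.94, limma adjusted p = 0.0301). *TIP2*, an aquaporin of the vacuole membrane, had 862, 1143 and 1678 in *crl1*, against 1771, 3908 and 2281 in WT (log2 fold change -1.09, limma adjusted p = 0.0498). That call ended in the limma fits without replicate 2 (0.0567), without the signal minimum (0.0703) and with median centring (0.0537). In the limma fit without the trend the calls of *Nrat1*, *VIT1.2* and *TIP2* all ended (0.271, 0.346 and 0.383), as they did without the block (0.999978 for each). *NAS1*, a nicotianamine synthase of iron uptake and transport, had 60.8, 28.98 and 337 in *crl1*, against 197, 154 and 402 in WT. It did not pass (log2 fold change -1.45, limma adjusted p = 0.0969). Over the alternatives its limma adjusted p ran between 0.00189 (without replicate 3) and 0.999978, and it was 0.0444 without replicate 1. No list held more than 2 called genes. Of 38 genes of metal transport and chelation 2 were called lower and 0 higher, with 9 at an unadjusted p under 0.05. A negative log2 fold change was found for 17 of these 38, beside 52.1% of all tested genes, and their median was 0.01. Of 21 aquaporin genes 1 was called lower and 0 higher, with 4 at an unadjusted p under 0.05. Their median was -0.03, and 12 of the 21 were negative. Among 9 regulators of root development 0 were called and 4 had an unadjusted p under 0.05. *RAA1* was at -1.11 (limma adjusted p = 0.0916, between 0.0243 without replicate 3 and 0.999978 over the alternatives). *WOX11*, a homeobox regulator of crown root growth, was at 0.71 (limma adjusted p = 0.0867) and *MADS26* at -0.80 (limma adjusted p = 0.186). Among 145 genes of hormone response 0 were called, with 17 at an unadjusted p under 0.05 and a median of 0.02. None was called by limma among 2 peroxidases, 35 transporters of nitrogen, phosphate, sulfate and potassium, 49 genes of expansins, cellulose synthases and xyloglucan hydrolases, 16 genes of disease resistance and defence, 5 receptor kinases and 19 cytochrome P450 genes, with 0, 7, 9, 0, 1 and 6 at an unadjusted p under 0.05. The cytochrome P450 genes had the highest median log2 fold change of the lists, 0.36.

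Markers of the tissues that a stem base may hold were read on the same arrays. Of 14 root tissue markers in the annotation 7 had a probe set over the minimum, and of these 0 were called by limma and 3 had an unadjusted p under 0.05, and their summed signal ran between 1118 and 1358 in *crl1* and between 1143 and 1575 in WT. Their median log2 fold change was -0.07, and they did not share a direction. *Lsi2*, a silicon exporter of roots, was the lowest at -0.94 (limma adjusted p = 0.127), followed by the auxin exporter *PIN2* at -0.70 (limma adjusted p = 0.437), while the ammonium transporter *AMT1-2* was the highest at 0.68 (limma adjusted p = 0.424). The other 4 lay between -0.18 and 0.11. The 5 markers of shoot meristem and stem summed to between 1826 and 2592 in *crl1* and between 1724 and 2406 in WT, with 0 called and 1 at an unadjusted p under 0.05. Of 4 green leaf markers *rca*, the activase of Rubisco, was called lower (log2 fold change -0.55, limma adjusted p = 0.0429), a call that ended without replicate 1 (limma adjusted p = 0.0644), without replicate 3 (0.172), without the signal minimum (0.0703), without the trend (0.354) and without the block (1.00). The 4 summed to between 6119 and 10108 in *crl1* and between 6800 and 10113 in WT. Of 3 seed storage markers 0 were called, at an unadjusted p under 0.05 as well. Over all tested genes 0.472% were called lower, 0.186% higher, and 9.55% had an unadjusted p under 0.05. The part of tissue make-up in the members' difference was not tested.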

How the data were processed

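Each of the 6 arrays stands for a separate pool of stem bases, from which 200 ng of total RNA was amplified and biotin-labelled. As deposited, each probe set has a linear intensity, the MAS5 signal that the authors computed in Affymetrix Expression Console, scaling every array to a target of 100. For neither program is a version given in the sources used here. The 123 control probe sets were left out. Members were found on the signal ratio with no pseudocount, and their own difference was given no test. Other comparisons came from limma 3.58.1 (R 4.3.3, with version 1.17.8 of data.table) on log2 signal, over probe sets whose geometric mean reached 20, with the replicate number as a block, a mean-variance trend and Benjamini-Hochberg adjusted p-values over all tested probe sets at a threshold of 0.05. The fits were tested on simulated data. Ratios in the study were taken within each replicate, and deviations from the genotype mean correlated at 0.390, 0.451 and 0.747 for arrays of the same number and at most 0.232 for others. The small number of arrays limits the precision.

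The members, the gene lists and the tests were chosen with earlier results of these data known. Genes of a list were represented by their brightest probe set. Named among the members were the 12 with the lowest mean log2 ratio, the 8 brightest in WT, those with an informative gene name and the 3 nearest the threshold, and outside them the 3 just over the threshold, other probe sets of member genes and up to 3 genes of each list with the smallest p. Further genes were named for the feature stated beside them, after their values were seen. Probe sets were paired with genes through an annotation that may be old (22436 with 1 gene, 95 with several, 34727 with none), and a reference annotation of assembly ASM3414082v1 gave names and gene order only. Alternatives were quantile normalization, centring on the median, a minimum of 50 or none, 16 added to every signal, ratios in all 9 pairs of arrays, no probe sets ending in _s_at or _x_at, no block, no trend, and leaving out each replicate. Promoter and protein sequences of the member genes were not analysed here. Figures were drawn with Python 3.11.15 and matplotlib 3.10.9.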

Additional observations from a re-analysis of the deposited data

How the results depend on the processing

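The number of probe sets halved in every pair was 570 without a signal minimum, 22 with a minimum of 50, 19 with 16 added to every signal, 13 with the ratio required in all 9 pairs of arrays, and between 58 and 90 without a replicate, of which 43, 39 and 44 were members when replicate 1, 2 or 3 was left out. Quantile normalization gave 46 (41 of them members) and median centring 47 (43 of them members). Held-out shares without a minimum were 32.9, 29.4 and 23.3%.

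By limma with the replicate block, 112 probe sets were lower and 51 higher. Without the block 4 and 1 were called, without the trend 0 and 0 (2298 in either direction at an unadjusted p under 0.05), and without a replicate between 91 and 241 lower and between 34 and 135 higher. Other probe sets of member genes called lower were 0 without the block, 0 without the trend and between 0 and 2 without a replicate. Neighbours called lower were 0 without the block, 0 without the trend, 2 with a minimum of 50, 2 with the pseudocount, and between 1 and 2 without a replicate. Genes of the 12 lists called lower were 0 without the block, 0 without the trend and between 5 and 13 without a replicate, and those called higher between 0 and 1 without a replicate. The calls of other probe sets, neighbours and list genes thus all ended without the block and without the trend, and the cause was not tested. With 3 arrays per genotype and members of low signal, small differences between probe sets could not be resolved.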
